A study of Rattus norvegicus with 12 samples.

Results

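Lipoprotein lipase (Lpl), the fatty acid carriers Cd36, Fabp1, Fabp4 and Fabp5, and the adipose genes Lipe, Plin1, Cfd, Ucp1 and Lep were followed in rat lung after trauma, with and without hemorrhagic shock and with the lymph duct open or tied. The members were all probe sets that the annotation of the array's platform gives a single symbol from these 10 genes, which came to 17 of the 8740 probe sets tested. A further 5 probe sets carried the symbols of Cd36l1 and Cd36 together and were described apart. The genes were chosen with results of these data known, and Lpl was chosen for its difference between shocked lungs with the duct open and shocked lungs with the duct ligated, so that difference is a description without a test.

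The study used specific pathogen-free male Sprague-Dawley rats of 300 to 420 g, and 12 Affymetrix rat genome arrays, with 3 per group. T/SS rats, the sham-shock controls, had a femoral artery and a jugular vein cannulated and the abdomen opened, and lost no blood. T/HS rats had the same surgery, were bled into heparinised saline to a mean arterial pressure of 30 mmHg for 90 min, and then got the shed blood back. In T/SS-LDL and in T/HS-LDL, the mesenteric lymphatic vessels were tied and cut through a midline opening before the same sham or shock procedure. The labels name pentobarbital for the shocked rats and refer back to that anaesthesia for the ligated rats. Thus all 4 groups shared the trauma of laparotomy, both shocked groups alone received heparin with the returned blood, and according to the design text T/HS alone had injured lungs. Tissue was removed 3 h after the shock or sham period, 4.5 h after its start.

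Each group held a pair of near-identical arrays, with robust SDs of the log2 differences from 0.00993 to 0.0548, while the remaining array pairs within groups had 0.164 to 0.232. Each such pair was averaged, which left 8 samples, 2 in each group: an averaged sample (replicates 2 and 3 in T/SS, replicates 1 and 3 elsewhere) and a single array. Nothing beyond the word biological replicate says that the arrays came from separate rats, so the errors measure the spread between these samples only. Values are RMA intensities on a linear scale, and the brightness of a probe set depends on its probes as well as on its transcript, so levels were compared between samples and not between genes. The 5 measured genes of the alveolar type II cell list averaged 14.33 to 14.46 on the log2 scale in the 8 samples, so the marker genes of lung tissue were bright in all of them. Sftpa1, Sftpb and Sftpc each read 31398 in T/HS replicate 2, the highest value on that array. At this upper limit the list cannot show whether the samples held equal amounts of lung.

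Lipoprotein lipase is secreted by fat, muscle and macrophages, is carried to the wall of capillaries and splits the triglyceride of chylomicrons and very low density lipoproteins. The fatty acids set free enter cells with the help of the surface protein Cd36 and are bound inside by small fatty acid binding proteins, of which Fabp4 is typical of fat cells, endothelium and macrophages, Fabp5 of epithelium and macrophages and Fabp1 of liver and gut. Dietary fat reaches the blood as chylomicrons through the mesenteric lymph, and a lung taken with the tissue around its root can carry fat cells. In the fat cell, Plin1 coats the lipid droplet, Lipe (hormone-sensitive lipase) takes part in emptying it, Lep and Cfd encode the secreted proteins leptin and adipsin, and Ucp1 is the uncoupling protein of brown fat mitochondria.

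Of the 10 genes, 6 had a promoter in the RefSeq table used here (rat build GRCr8), and those of Lpl, Fabp4, Fabp5 and Lipe were not among them. The promoters of Ucp1, Plin1 and Cfd are shown because these adipose genes parted in the data, with Ucp1 far higher in a single sample in which Plin1 and Cfd were not. Each sequence runs from 250 bases before to 50 bases after the annotated start, 5′ to 3′ on the gene's strand. Capitals mark matches to 3 motifs searched on both strands. They were TATAAA, which places the start of transcription in many genes, the half-site of nuclear receptors such as the PPARs, AGGTCA, and the motif CCAAT, which is bound by NF-Y.
Ucp1, chr19:41721372-41721671, minus strand: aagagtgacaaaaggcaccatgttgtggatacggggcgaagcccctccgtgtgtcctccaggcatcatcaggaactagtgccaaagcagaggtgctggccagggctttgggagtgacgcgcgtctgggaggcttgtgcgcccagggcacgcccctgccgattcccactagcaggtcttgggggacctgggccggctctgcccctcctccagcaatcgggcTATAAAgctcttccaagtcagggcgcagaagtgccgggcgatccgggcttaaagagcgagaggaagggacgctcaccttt
Plin1, chr1:143086099-143086398, minus strand: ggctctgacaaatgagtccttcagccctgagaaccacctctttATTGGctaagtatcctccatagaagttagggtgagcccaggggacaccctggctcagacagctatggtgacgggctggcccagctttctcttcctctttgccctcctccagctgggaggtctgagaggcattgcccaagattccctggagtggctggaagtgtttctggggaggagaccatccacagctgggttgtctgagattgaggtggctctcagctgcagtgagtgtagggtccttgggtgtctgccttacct
Cfd, chr7:10465447-10465746, minus strand: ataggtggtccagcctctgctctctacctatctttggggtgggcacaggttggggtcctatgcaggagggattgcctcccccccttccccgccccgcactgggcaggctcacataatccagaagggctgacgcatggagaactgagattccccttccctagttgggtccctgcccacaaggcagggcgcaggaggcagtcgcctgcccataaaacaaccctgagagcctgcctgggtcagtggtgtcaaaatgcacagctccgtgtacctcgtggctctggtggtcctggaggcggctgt
The Ucp1 window held TATAAA on the same strand, 30 bases before the start. The shares of promoters given here count a match on either strand anywhere in the window. For TATAAA the share was 14.2% of the 33469 promoters of this length. The Plin1 window held CCAAT on the opposite strand, found in 37.5% of promoters, and the Cfd window held none of the 3 motifs. AGGTCA was in 16.2% of promoters and in none of these 3. No match overlapped another, and the absence of these letters from the window says nothing about the factors.

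Lpl had its lowest values in the lungs of T/HS rats. On the probe set with the highest mean (L03294_at) the T/HS intensities were 2866 and 4281. They were 7208 and 8616 in T/SS, 6014 and 9163 in T/SS-LDL, and 9985 and 8129 in T/HS-LDL, with the single array first in each group and the averaged sample after it. Both T/HS samples lay below all 6 others. The same held for the other Lpl probe sets. On rc_AI237731_s_at the T/HS samples had 1802 and 3877 against 4756 to 8604 elsewhere, and on L03294_g_at 1806 and 2953 against 3827 to 8281. Of all probe sets, 7.72% had both T/HS samples below the 6 others, a share from which nothing is read for a gene chosen on its T/HS values. The 3 probe sets share a transcript and are not separate evidence.

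On the leading Lpl probe set, T/HS minus T/HS-LDL was a log2 difference of -1.36 ± 0.26 (SE from limma, n = 2 samples a group), a 2.57-fold difference. The other probe sets gave -1.18 ± 0.43 and -1.31 ± 0.41. Against T/SS, which shares the T/HS samples with that comparison, the differences were -1.17 ± 0.26, -1.28 ± 0.43 and -1.25 ± 0.41, with limma adjusted p values of 0.392, 0.489 and 0.488. In the ligated rats, T/HS-LDL minus T/SS-LDL was 0.28 ± 0.26 on the leading probe set, -0.09 ± 0.43 and 0.03 ± 0.41 on the others (limma adjusted p 0.998 for each). Ligation without shock gave -0.09 ± 0.26 (limma adjusted p 0.982). The difference between the shock effects with the duct open and ligated was -1.45 ± 0.37, -1.19 ± 0.61 and -1.28 ± 0.59, also given as a description because it holds the contrast on which Lpl was chosen. In order of group means on the log2 scale, T/HS (11.77 ± 0.41, SD, n = 2) came first, followed by T/SS-LDL (12.86 ± 0.43), T/SS (12.94 ± 0.18) and T/HS-LDL (13.14 ± 0.21), and these last 3 overlapped. In whole lung RNA, fewer cells that make a transcript and less of it in each cell cannot be told apart.

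**Figure D1:**
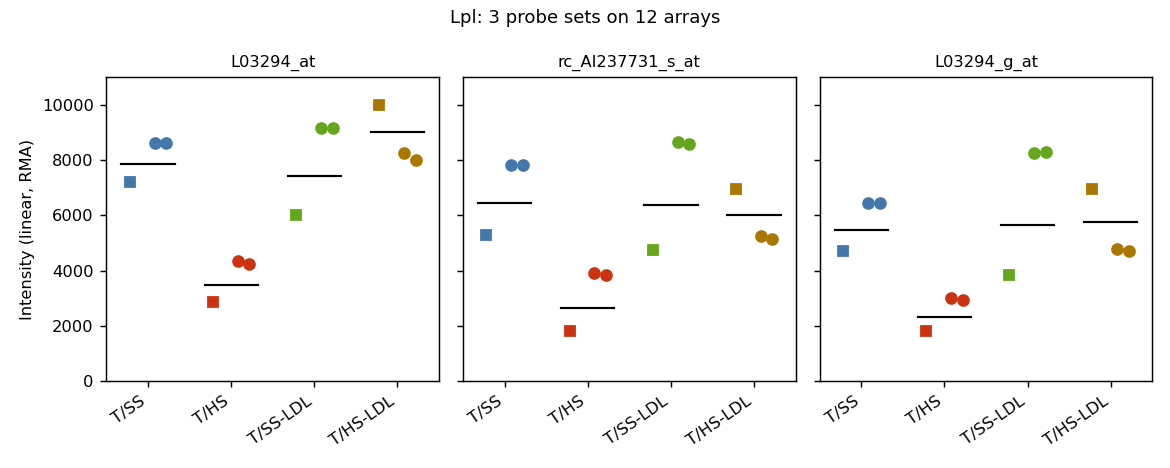
Intensity (linear scale) of the 3 Lpl probe sets on the 12 arrays by group; circles are the near-identical pair of a group, squares the third array, and black lines the group mean of log2 values over 2 samples. On each probe set all 3 T/HS arrays lie below the 9 others.

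None of the 17 member probe sets passed an adjusted p of 0.05 in any of the 5 contrasts, where limma called 0 of 8740 probe sets (0%) in each. At an unadjusted p under 0.05 there were 4 members in T/HS against T/SS (background 8.80% of all probe sets), 3 in T/HS against T/HS-LDL (6.37%), 0 in T/HS-LDL against T/SS-LDL (3.79%), 1 in T/SS-LDL against T/SS (4.23%) and 2 in the interaction (2.99%). Lpl supplied all 3 probe sets for T/HS against T/HS-LDL and 3 of the 4 for T/HS against T/SS, and since Lpl was chosen on its T/HS values nothing is read from these counts. The median difference over the members was -0.04, -0.21, 0.03 and -0.01 in the 4 comparisons of groups in this order, beside -0.007, 0.019, 0.013 and -0.021 over all probe sets. Members whose groups did not overlap numbered 3 higher and 6 lower in T/HS against T/SS, beside 19.2% and 20.9% of all probe sets. They numbered 2 higher and 3 lower in T/HS against T/HS-LDL (18.4% and 15.7%), 2 higher and 0 lower in T/HS-LDL against T/SS-LDL (16.8% and 12.4%), and 4 higher and 3 lower in T/SS-LDL against T/SS (16.2% and 24.5%).

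**Figure D2:**
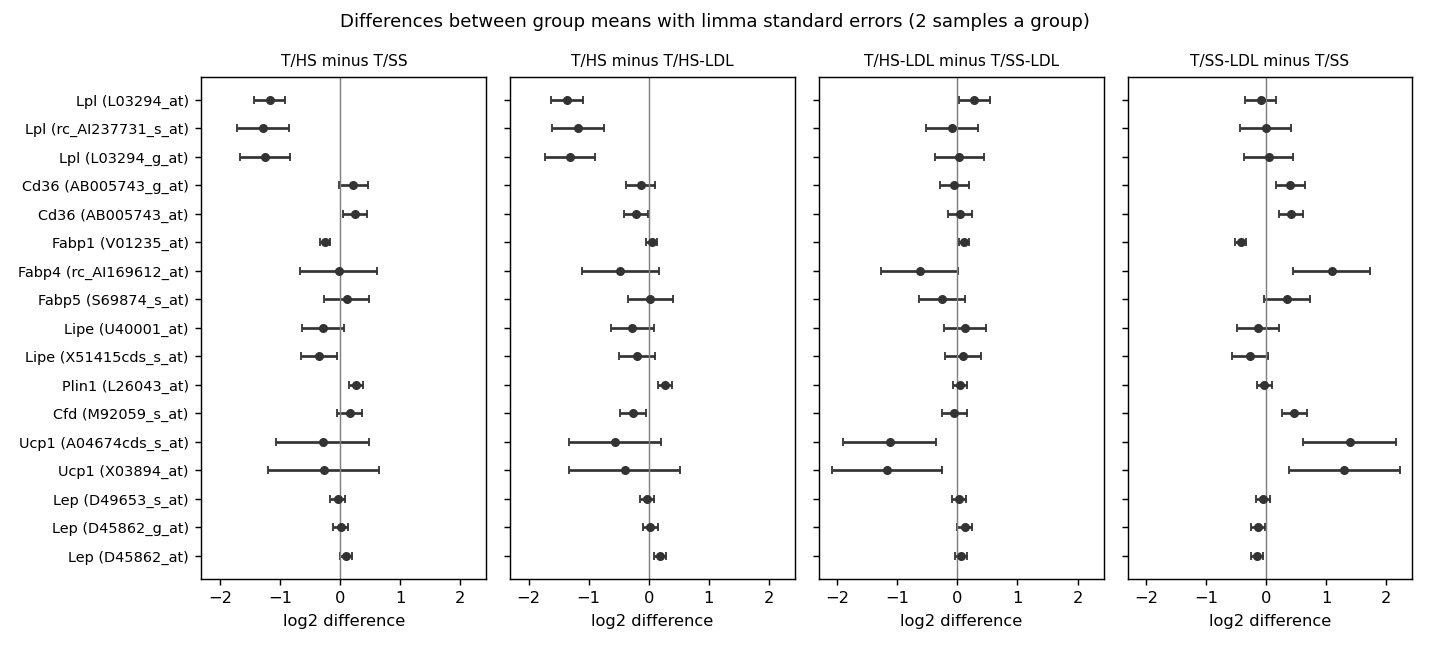
Log2 differences of the 17 member probe sets (rows) in the 4 comparisons of groups (panels), with points for the difference between group means and bars for ±1 SE from limma on 2 samples a group. The Lpl probe sets stand near -1.2 to -1.4 in both comparisons with T/HS, and the widest bars are those of Ucp1.

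Cd36, the fatty acid transporter of capillary endothelium and macrophages, varied by less than 2-fold between samples. Its probe set AB005743_g_at read 637 and 700 in T/SS, 674 and 895 in T/HS, 855 and 901 in T/SS-LDL, and 660 and 1090 in T/HS-LDL. The T/SS-LDL values both exceeded the T/SS values, with a log2 difference of 0.40 ± 0.24 (limma adjusted p 0.896), and every other pair of groups compared overlapped. AB005743_at, a second probe set of the same sequence, differed there by 0.42 ± 0.20. The T/HS minus T/HS-LDL difference of AB005743_g_at was -0.13 ± 0.24 (limma adjusted p 0.914), and turned to 0.23 without the averaged T/HS-LDL sample. The probe sets shared with Cd36l1, a neighbouring gene of like sequence, did not all behave alike. In 4 of these 5 the averaged T/HS-LDL sample was the highest of the 8, as on AF072411_g_at, which read 12410 there and 5482 to 10049 elsewhere. On rc_AA946368_at the same sample was the lowest, at 1627, beside 4040 to 7302 elsewhere. Which of the 2 genes gave these signals cannot be read from the annotation.

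Fabp5, the epidermal type carrier, showed its widest gap within T/HS-LDL. It read 5817 and 5474 in T/SS, 6514 and 5711 in T/HS, 5974 and 8604 in T/SS-LDL, and 9175 and 3904 in T/HS-LDL. The highest and the lowest of the 8 samples were thus the 2 samples of this group. The T/HS-LDL minus T/SS-LDL difference was -0.26 ± 0.38 (limma adjusted p 0.998), and became 0.36 without the averaged T/HS-LDL sample and -0.88 without T/HS-LDL replicate 2. Fabp1, the liver type carrier, was dim: its mean lay at the 9.15th percentile of all probe sets and its intensity between 86.4 and 118. Both T/SS samples (118 and 114) lay above the other 6, and it was lower in T/HS by -0.25 ± 0.09 (limma adjusted p 0.532) and in T/SS-LDL by -0.42 ± 0.09 (limma adjusted p 0.896) than in T/SS.

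Ucp1 and Fabp4 were far higher in the averaged T/SS-LDL sample than in any other. Ucp1 on A04674cds_s_at read 2901 there, beside 444 in T/SS-LDL replicate 2, 457 and 409 in T/SS, 395 and 315 in T/HS, and 393 and 687 in T/HS-LDL. On X03894_at it read 1470 there and between 150 and 269 elsewhere. Both arrays of the pair carried the signal, with 2945 and 2859 on the first probe set and 1462 and 1478 on the second. Fabp4 read 948 in this sample and 225 in the other of its group, 266 and 178 in T/SS, 274 and 167 in T/HS, and 238 and 371 in T/HS-LDL. The averaged T/HS-LDL sample came next on both Ucp1 probe sets and on Fabp4. Between the highest and the lowest sample Ucp1 spanned 9.22-fold and 9.82-fold, and Fabp4 spanned 5.68-fold.

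In this averaged T/SS-LDL sample 6 of 8740 probe sets (0.0686%) stood more than 1 log2 unit above each other sample, a threshold chosen after the values were seen. They were both probe sets of Ucp1 (2.45 and 2.08 above the next sample), Fabp4 (1.35), Cidea, a lipid droplet protein of brown fat cells (1.05), Acsl1, which activates long-chain fatty acids (1.02), and a probe set with no symbol in the annotation (2.08). The same count was 71 (0.812%) in T/HS replicate 2, 3 (0.0343%) in the averaged T/HS sample and 8 (0.0915%) in the averaged T/HS-LDL sample. It was 2 (0.0229%) in T/SS replicate 1 and in T/HS-LDL replicate 2, and 0 in the remaining samples. The Acsl1 signal was on D90109_at alone: rc_AA893242_at, the Acsl1 probe set with the highest mean, read 1080 in that sample and 1064 to 1266 elsewhere. Cidea read 727 in the averaged T/SS-LDL sample and 235 to 352 elsewhere. Group differences of these genes therefore rest on that sample. Of T/SS-LDL minus T/SS, Ucp1 had 1.39 ± 0.77 and Fabp4 1.09 ± 0.64 (limma adjusted p 0.896 for both). Without the averaged T/SS-LDL sample those differences were 0.04 and 0.05. In T/HS-LDL minus T/SS-LDL, Ucp1 differed by -1.13 ± 0.77 and Fabp4 by -0.63 ± 0.64 (limma adjusted p 0.998 for both), and the signs turned to 0.23 and 0.41 without it.

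**Figure D3:**
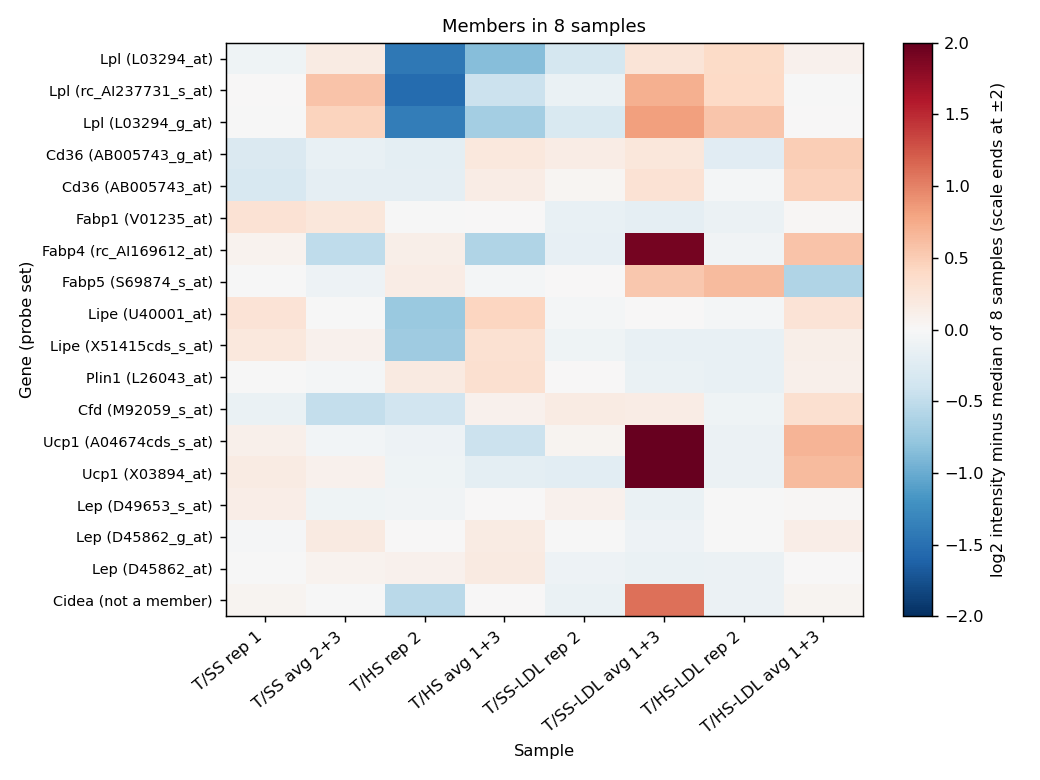
Log2 intensity of each member probe set, with Cidea below, in the 8 samples, as the difference from that probe set's median; colours reach their limit at 2 log2 units either way, and avg marks the mean of near-identical arrays. Lpl is low in both T/HS samples, while Ucp1, Fabp4 and Cidea are high in the averaged T/SS-LDL sample.

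The adipose members Plin1, Cfd, Lipe and Lep did not share that peak. Some other genes of the adipocyte list, described below, were also highest in that sample. Plin1, the droplet coat of fat cells, read 262 in the averaged T/SS-LDL sample and 260 to 359 elsewhere, Cfd read 2122 there and 1370 to 2363 elsewhere, and Lipe read 5967 there and 3516 to 7978 elsewhere on U40001_at. Plin1 and the Lep probe set D45862_at had both T/HS samples above all 6 others, by small margins (325 and 359 beside 260 to 309 for Plin1). Of all probe sets 6.88% had this order. Plin1 was higher in T/HS than in T/SS by 0.27 ± 0.12 (limma adjusted p 0.579).

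Lep, the leptin gene, differed in brightness between its probe sets. D45862_at and D45862_g_at lay at the 29.2th and 37.7th percentile of all probe sets with 245 to 440 intensity units, while D49653_s_at lay at the 96.8th percentile with 12933 to 15489. The letter s in such a name marks probes that may match more than a single transcript. No Lep probe set spanned more than 1.24-fold over the 8 samples. Lipe, the hormone-sensitive lipase, was lowest in T/HS replicate 2 on both probe sets, at 3516 and 1384, while the averaged T/HS sample had the highest values, 7978 and 2798. The T/HS minus T/SS difference of Lipe was -0.29 ± 0.35 (limma adjusted p 0.858), and turned to 0.31 without T/HS replicate 2. Cfd, which encodes adipsin, the complement factor D of plasma, was higher in both T/SS-LDL samples than in both T/SS samples, by 0.47 ± 0.21 (limma adjusted p 0.896).

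The values of Lpl were set beside those of the adipose genes. In T/HS-LDL replicate 2, the sample with the most Lpl on the leading probe set (9985), Ucp1 read 393 and Fabp4 read 238, within the range of the T/HS samples (315 to 395 and 167 to 274), where Lpl read 2866 and 4281. In the averaged T/SS-LDL sample, with the most Ucp1 and Fabp4, Lpl read 9163 on that probe set, and it had the highest Lpl of the 8 samples on the other 2. Of T/HS minus T/SS, Lpl had -1.17 ± 0.26, Ucp1 -0.29 ± 0.77 and Fabp4 -0.02 ± 0.64. Ucp1 was lower in T/HS than in T/SS without overlap on both probe sets. It read 395 and 315 beside 457 and 409 on A04674cds_s_at, and 163 and 152 beside 195 and 185 on X03894_at. Of all probe sets 20.9% had this order. The estimates of the 2 Lpl differences against T/HS, from T/SS and from T/HS-LDL, do not use the averaged T/SS-LDL sample. The standard errors of Lpl, Ucp1 and Fabp4 do use it, because the fit takes a spread shared by all 4 groups. No correlation over the 8 samples is given, because a single sample stands apart in Ucp1 and Fabp4. Other adipose genes did not all go the same way. Lipe was lowest in T/HS replicate 2, the sample with the least Lpl, and highest in the averaged T/HS sample. Of 19 measured genes of the adipocyte list below, 1, Me1, had both T/HS samples below all 6 others (8.04% of all genes). It read 594 and 555 beside 633 to 1127, and 1 gene, Plin1, had both above. The part of fat tissue in the Lpl values was not tested.

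**Figure D4:**
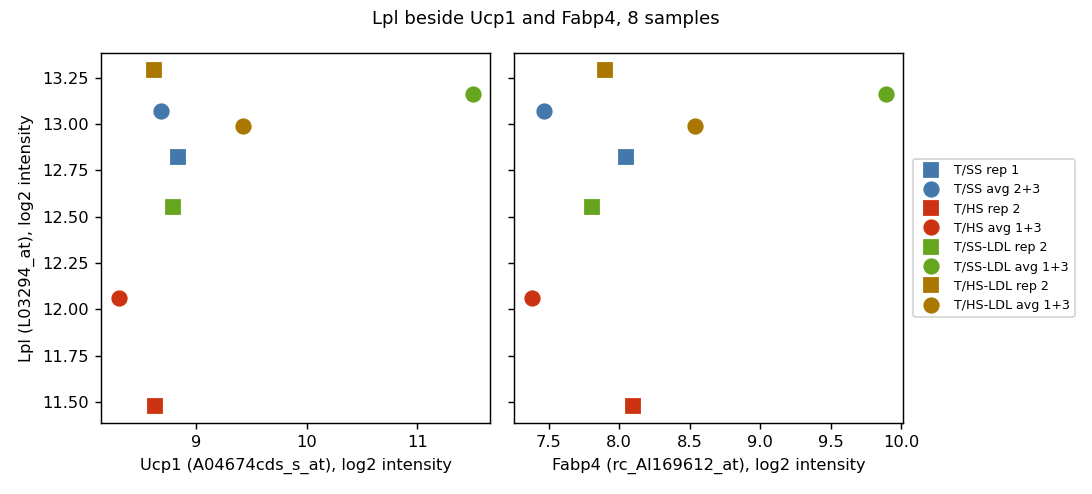
Log2 intensity of Lpl (vertical axis, L03294_at) against Ucp1 (left) and Fabp4 (right) in the 8 samples, coloured by group, with circles for averaged samples and squares for single arrays. The T/HS samples are lowest in Lpl. T/HS-LDL replicate 2, the highest in Lpl, lies between the T/HS samples in Ucp1 and in Fabp4, and the averaged T/SS-LDL sample lies alone on the right.

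Over the list of adipocyte genes, 19 of 24 were measured, 6 of them members. In 7 of the 19 the averaged T/SS-LDL sample was the highest of the 8, among them Ucp1, Fabp4 and Cidea, Fasn, the fatty acid synthase (10458 beside 4987 to 7970), and Me1, the malic enzyme (1127 beside 555 to 911). The share of all genes that were highest in that sample was not counted, so nothing is read from the 7. The list's mean log2 level was 10.72 in that sample and 10.25 in T/SS-LDL replicate 2. It was 10.21 to 10.25 in T/SS, 10.11 to 10.28 in T/HS and 10.28 to 10.37 in T/HS-LDL. Over the 16 genes other than Ucp1, Fabp4 and Cidea the mean was 10.80 in the averaged T/SS-LDL sample, 10.61 in T/SS-LDL replicate 2 and 10.47 to 10.70 in the other groups. In T/HS against T/SS 0 of 19 passed, 3 were higher and 4 lower without overlap (18.7% and 20.9% of all genes), and the median difference was -0.02, beside -0.01 over all genes. In T/SS-LDL against T/SS 3 were higher and 0 lower without overlap (16.6% and 24.0% of all genes), with a median of 0.07 beside -0.02. The part of fat tissue in the levels of the members was not tested.

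Fatty acid oxidation, the mitochondrial and peroxisomal use of the acids that Lpl sets free, was followed in 22 measured genes of a list of 27. None passed in any comparison. In T/HS against T/SS 12 were lower and 1 higher without overlap, beside 20.9% and 18.7% of all genes, and the median difference was -0.17 beside -0.01. In T/HS against T/HS-LDL 10 were lower and 0 higher (16.1% and 17.3% of all genes), with a median of -0.12 beside 0.02. In T/HS-LDL against T/SS-LDL 8 were lower and 2 higher (13.2% and 16.0%), with a median of -0.15 beside 0.01. In T/SS-LDL against T/SS 8 were higher and 2 lower (16.6% and 24.0%), with a median of 0.09 beside -0.02. The comparisons that share a group are not separate counts.

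Both T/HS samples lay below all 6 others in 7 of these 22 genes (31.8%), beside 8.04% of all genes. These were Acadm, Acat1, Decr1, Eci1, Ehhadh, Etfdh and Hadhb. Acadm, the medium-chain acyl-CoA dehydrogenase, read 1162 and 1420 in T/HS, 1871 and 2185 in T/SS, 2252 and 3133 in T/SS-LDL, and 1908 and 2651 in T/HS-LDL. It was lower in T/HS than in T/SS by -0.65 ± 0.22 (limma adjusted p 0.492). Decr1, which prepares unsaturated acids for oxidation, read 1570 and 1628 in T/HS and 1910 to 2748 elsewhere, and differed by -0.44 ± 0.13 (limma adjusted p 0.460). Acat1, a thiolase, differed by -0.23 ± 0.09 (limma adjusted p 0.563). Among the brightest, Hadha, a subunit of the trifunctional protein, differed by -0.03 ± 0.11, Acaa2, another thiolase, by -0.44 ± 0.19, and Hsd17b4, of the peroxisome, by -0.21 ± 0.18. The averaged T/SS-LDL sample was the highest of the 8 in 12 of the 22, with the widest gap for Cpt1a, which lets fatty acids into mitochondria (4107 beside 1831 to 2662), so comparisons with T/SS-LDL hold that sample's values. The share of all genes that were highest in it was not counted, so nothing is read from the 12.

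**Figure D5:**
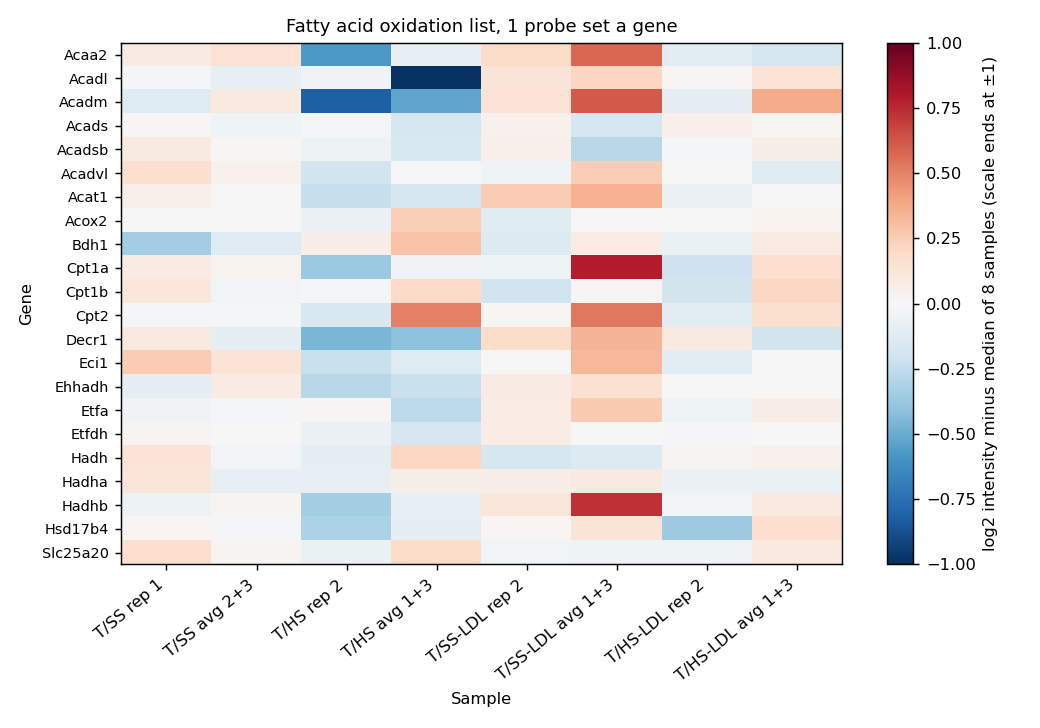
Log2 intensity of the 22 measured fatty acid oxidation genes in the 8 samples, as the difference from each gene's median; colours reach their limit at 1 log2 unit either way. The T/HS columns hold most of the low values and the averaged T/SS-LDL column most of the high ones.

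Genes of fatty acid uptake, binding and activation were measured in 19 of 21 cases, and 0 passed. Those without overlap were 2 higher and 4 lower in T/HS against T/SS, beside 18.7% and 20.9% of all genes, with a median of -0.12 beside -0.01. Scp2, a carrier of sterols and fatty acids, read 1722 and 1794 in T/HS and 1984 to 3297 elsewhere, with a T/HS minus T/SS difference of -0.48 ± 0.17 (limma adjusted p 0.497). Acot2, a mitochondrial thioesterase, differed by -0.42 ± 0.12 (limma adjusted p 0.434). Cav1, the coat protein of caveolae, differed by -0.32 ± 0.26, Acsl5, which activates fatty acids, by -0.15 ± 0.19, and Fabp6, the ileal bile acid carrier, by -0.05 ± 0.14.

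Lipoprotein receptors, apolipoproteins and other lipases were measured in 12 of 23 cases, and 0 passed. In T/HS against T/SS 5 were higher and 1 lower without overlap (18.7% and 20.9% of all genes), with a median of 0.07 beside -0.01. In T/HS against T/HS-LDL, which shares the T/HS samples, 6 were higher and 0 lower (17.3% and 16.1%), with a median of 0.12 beside 0.02. Scarb1, a receptor for high density lipoprotein, read 9262 and 10597 in T/HS and 6739 to 8701 elsewhere, and was higher in T/HS than in T/SS by 0.21 ± 0.12. Apob, the structural protein of chylomicrons and very low density lipoproteins, read 1044 and 1193 in T/HS and 800 to 893 elsewhere, with a difference of 0.37 ± 0.12 from T/SS. Apoe, a ligand of lipoprotein receptors, and Lipa, the lysosomal lipase, differed by -0.01 ± 0.11 and 0.07 ± 0.12. Gpihbp1, the anchor of Lpl on capillaries, and Angptl4, its inhibitor, had no probe set with their symbol alone and were not analysed here.

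The receptors and regulators of lipid genes, PPARs among them, were measured in 25 of 27 cases, and 0 passed. Without overlap, 7 were higher and 3 lower in T/HS against T/SS (18.7% and 20.9% of all genes), with a median of 0.07 beside -0.01. Cebpd, a transcription factor of fat cell formation and of the acute phase, read 12184 and 8327 in T/HS, 5080 and 4217 in T/SS, 5094 and 6180 in T/SS-LDL, and 8402 and 6914 in T/HS-LDL. It was higher by 1.12 ± 0.21 in T/HS against T/SS and by 0.44 ± 0.21 in T/HS-LDL against T/SS-LDL. Its relative Cebpb differed by 0.61 ± 0.30 and 0.63 ± 0.30 in these comparisons, and Cebpa by 0.07 ± 0.15 and 0.12 ± 0.15. Ucp2, the uncoupling protein of many tissues, differed by -0.23 ± 0.10, and Nr1h2, a liver X receptor, by 0.07 ± 0.14 in T/HS against T/SS. Pparg, the receptor that drives many fat cell genes, differed by -0.32 ± 0.22 from T/SS and by -0.45 ± 0.22 from T/HS-LDL.

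Markers of other cells were followed in the same samples. The macrophage list, with 8 of 20 genes measured, had mean log2 levels of 10.43 to 10.67 in T/HS, 10.06 to 10.12 in T/SS, 10.18 to 10.20 in T/SS-LDL and 10.38 to 10.56 in T/HS-LDL. In T/HS against T/SS 5 of these genes were higher and 0 lower without overlap (18.7% and 20.9% of all genes), with a median of 0.19 beside -0.01. Fcgr2b differed by 1.36 ± 0.44, Cd14 by 1.25 ± 0.32 and Ccr2 by 0.65 ± 0.09, and the rest by -0.01 to 0.24. The neutrophil list, with 8 of 17 measured, had 11.12 to 11.97 in T/HS and 11.73 to 12.11 in T/HS-LDL, beside 10.04 to 10.42 in T/SS and 10.84 to 10.88 in T/SS-LDL. The endothelial list (10 of 16 measured) lay between 10.96 and 11.15 in T/HS and between 10.92 and 11.19 in the other groups. Of its genes 3 were higher and 4 lower without overlap in T/HS against T/SS (18.7% and 20.9% of all genes), with a median difference of -0.02 beside -0.01. In 2 of the 10 (20%), both T/HS samples lay below all 6 others, beside 8.04% of all genes. These were Kdr (1916 and 2172 beside 2571 to 3422) and Icam2 (1239 and 1260 beside 1465 to 2795). In 1 they lay above, beside 6.88% of all probe sets. The list mean includes Selp, which read 3957 in T/HS replicate 2, 2730 in T/HS-LDL replicate 2 and 525 to 730 elsewhere. The heart muscle list (17 of 18 measured) was at least 9.86 in both T/HS samples, and was lowest in the averaged T/SS sample (9.29) and T/HS-LDL replicate 2 (9.05). The mesothelium list (3 of 7 measured) lay between 11.06 and 11.40, and the liver list (11 of 11) between 9.32 and 9.47 in all 8 samples. An array gives no true zero, so no marker can be called absent, and the part of these cells in the Lpl result was not tested.

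The probe sets most like Lpl over the 8 samples, among 3621 that were no members and at least as bright as the median, were those of Atp6ap1, a subunit of the proton pump (Pearson's r of 0.978 with L03294_at), Abracl (0.943), Dut, which removes dUTP (0.937), Sec61b, of the protein channel of the endoplasmic reticulum (0.935), and Chkb, a choline kinase (0.932). In each of these 5, both T/HS samples lay below all 6 others, an order found in 7.72% of all probe sets. Likeness to Lpl, which had this order, picked these 5 probe sets, so nothing is read from their order. Their spans were narrower than that of Lpl (1.80 log2 units), from 0.16 for Chkb to 0.92 for Dut. Those most like Cd36 were the cytochrome P450 Cyp2a3 on 2 probe sets (0.936 and 0.907) and Csrp2 (0.919), and those most like Cfd were Nr1d2, a receptor of the circadian clock (0.860), Smad2 (0.855) and Dad1 (0.843). These coefficients rank likeness over 8 samples from shared arrays and carry no test.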

How the data were processed

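Lung RNA was measured on 12 one-colour arrays, and the authors made the deposited intensity values with RMA, per the submitters' processing notes; its version is not given in the sources used here. The analysis took the log2 of these values without rescaling. The 59 array controls among 8799 probe sets were dropped, and 7006 of the rest carried 1 symbol, 308 several and 1426 none in the platform's annotation. A gene in a list is represented by its probe set with the highest mean. The members and lists were chosen with earlier results of these data known.

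Arrays of a group with a robust SD of log2 differences under 0.1 were averaged, and limma 3.58.1 (R 4.3.3, lmFit and eBayes) fitted all 4 groups together, with 4 residual and 2.85 prior degrees of freedom. Tests were two-sided, with Benjamini-Hochberg adjustment over 8740 probe sets and a threshold of 0.05. The script was tested on simulated data. The number of arrays limits the precision. Array medians lay between 651 and 680 intensity units. All member probe sets are reported. Naming followed a rule in the oxidation, uptake, lipoprotein, receptor and adipocyte lists. Up to 3 genes with the highest mean and up to 2 with the smallest p of an F test over the groups are named. Acly of the adipocyte list, which falls under this rule, is not described. The rule was not applied to the other cell lists, and other genes were named after their values were seen. Likeness used the 5 (Lpl) or 3 (Cd36, Cfd) highest r. Alternatives were separate arrays, blocks, other scalings, a filter on dim probe sets and leaving out samples.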

Additional observations from a re-analysis of the deposited data

Results flagged for a closer look

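Fabp1 differed with shock in opposite directions in the 2 duct states: both T/HS samples lay below both T/SS samples and both T/HS-LDL samples above both T/SS-LDL samples. The difference between the shock effects was -0.36 ± 0.13 on the log2 scale and did not pass (limma adjusted p 1). All intensities of this probe set lay between 86.4 and 118, at the 9.15th percentile of all probe sets by its mean.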

How the results depend on the processing

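With the 12 arrays as separate samples, limma called 629 probe sets in T/HS against T/SS, 372 in T/HS against T/HS-LDL, 127 in T/HS-LDL against T/SS-LDL, 141 in T/SS-LDL against T/SS and 1 in the interaction, where the 8 samples gave 0 in each. With the replicate block on those arrays, the counts were 456, 130, 47, 21 and 1, and with the near-identical pair as a random block 25 were called in T/HS against T/SS. Members called were 3 with separate arrays (2 probe sets of Lpl, and Fabp1) and 1 with the replicate block (Lpl) in T/HS against T/SS, 1 (Lpl) with either in T/HS against T/HS-LDL, the contrast on which Lpl was chosen and from which nothing is read, and 1 (Fabp1) with separate arrays in T/SS-LDL against T/SS. The fits with separate arrays and with the replicate block count near-identical arrays as separate, while the random block allows for their likeness. Leaving out each sample in turn gave 0 to 139, 0 to 66, 0 to 2, 0 to 2 and 0 to 27 calls in the same order, with no member among them. The Lpl difference then ranged from -1.46 to -0.88 (T/HS against T/SS), from -1.65 to -1.07 (T/HS against T/HS-LDL), from -0.02 to 0.58 (T/HS-LDL against T/SS-LDL) and from -0.39 to 0.22 (T/SS-LDL against T/SS). Quantile normalization, median centring, an offset of 50, the filter at the 25th percentile, the intensity trend and the lower-numbered array of each pair called 0 in every contrast. The cause of these shifts was not tested. Equal replicate numbers were not taken to pair the arrays: over 18 pairs the correlation of deviations from the group means ran from -0.166 to 0.189, with 3 over 0.1, and the labels tie no number to a shared day.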

Other observations

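The averaged T/SS-LDL sample stood over 0.5 log2 units above each other sample in 25 of 8740 probe sets, a threshold chosen after the values were seen. After the 6 described above, the widest gaps were those of Gpd2, the mitochondrial glycerol phosphate dehydrogenase (293 beside 125 to 153), Dmbt1 (626 beside 179 to 386), a probe set with no symbol, and Npy, which encodes neuropeptide Y (7438 beside 2483 to 4736). Whether these values share a source with those of Ucp1 and Fabp4 was not tested.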
